A study of Mus musculus with 5 samples.

Results

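The BCL2 family genes described here are the survival genes Bcl2, Bcl2l1, Bcl2l2 and Mcl1 and the death genes Bax, Bak1, Bcl2l11, Bid, Bad and Bmf. They were taken by gene symbol from a table of 24046 genes, in which all 10 were present, and all 10 passed the filter on low values that left 13661 genes for testing. The data are bulk RNA sequencing of hematopoietic stem cells (HSCs) from bone marrow of transplanted mice, made to ask what loss of SYNCRIP, an RNA-binding protein, does to the HSC transcriptome. The donor marrow was Syncrip flox/flox in both groups, either Mx1 Cre- (WT, 3 libraries, numbered 1, 2 and 3) or Mx1 Cre+ (KO, 2 libraries, numbered 2 and 3). It was placed in lethally irradiated CD45.1 congenic females, and all recipients of both groups were given polyinosinic:polycytidylic acid (pIpC), an interferon inducer that switches on the Mx1 promoter. HSCs were sorted 9 weeks after transplantation and 3 weeks after pIpC as CD45.2+, Lin-, Sca1+, cKit+, CD150+ and CD48- cells. The Mx1 promoter is active in many interferon-responsive cells and not in HSCs alone, and WT donors carried no Cre, so loss of Syncrip and presence of Cre recombinase cannot be told apart. The labels do not say whether a library came from 1 mouse or from a pool, and p-values therefore measure only the spread between these libraries. In bulk samples, fewer cells of a type and less RNA per cell cannot be told apart.

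BCL2 family proteins decide whether the outer mitochondrial membrane is opened, the step that releases cytochrome c and commits a cell to apoptosis. BAX and BAK1 form the pore, BCL2 and its antiapoptotic relatives hold them in check, and the BH3-only proteins relay death signals through a short helix, the BH3 domain, by which they bind antiapoptotic proteins and some of them also the effectors. HSCs are known to depend on MCL1 for survival, and BCL2 raises HSC number when overexpressed.

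The feature shared by the 10 genes is the coding stretch of the BH3 domain, shown here because it ties the survival and death genes into a single family. A script translated the longest complete coding transcript of each gene in GENCODE M21 (GRCm38, the assembly also called mm10) and searched for a BH3 core of leucine or methionine, any 3 residues, a small residue (glycine, serine or alanine) and aspartate. The core occurred exactly 1 time in each of the 10 proteins. Capitals mark the codons of the core, and lower case the codons on either side, written 5′ to 3′ on the coding strand.
Bcl2: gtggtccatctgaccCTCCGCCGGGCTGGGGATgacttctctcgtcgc
Bcl2l1: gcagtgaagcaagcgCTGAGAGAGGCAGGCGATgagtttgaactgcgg
Bcl2l2: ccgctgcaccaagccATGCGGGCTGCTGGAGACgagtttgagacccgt
Mcl1: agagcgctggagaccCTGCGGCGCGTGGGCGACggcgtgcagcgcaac
Bax: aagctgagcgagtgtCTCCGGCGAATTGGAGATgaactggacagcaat
Bak1: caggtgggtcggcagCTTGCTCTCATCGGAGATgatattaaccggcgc
Bcl2l11: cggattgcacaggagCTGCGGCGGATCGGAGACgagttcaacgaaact
Bid: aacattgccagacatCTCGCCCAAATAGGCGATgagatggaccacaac
Bad: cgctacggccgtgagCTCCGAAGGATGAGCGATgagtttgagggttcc
Bmf: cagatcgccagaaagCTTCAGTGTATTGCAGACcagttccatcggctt

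The core lay at residues 94 to 99 of 236 in BCL2, 63 to 68 of 192 in BAX, 151 to 156 of 204 in BAD and 224 to 229 of 271 in BMF. In the antiapoptotic and effector proteins it is 1 of several homology domains, while in the BH3-only proteins it is the only one. Bax shares 12.2% of its exon bases with the same-strand gene Gm45808 and Bcl2l2 13.3% with Gm20521, and how reads of such overlaps were assigned is not given in the sources used here. In GENCODE M21, Bcl2 lies at chr1:106538178-106714274 (minus strand), Mcl1 at chr3:95658788-95663176 (plus), Bax at chr7:45461697-45466898 (minus), Bak1 at chr17:27019810-27029009 (minus), Bid at chr6:120891930-120916853 (minus), Bad at chr19:6941861-6951899 (plus) and Bcl2l2 at chr14:54883377-54888234 (plus). Bcl2l1 at chr2:152780668-152831728 (minus), Bcl2l11 at chr2:128126038-128162547 (plus) and Bmf at chr2:118528757-118549687 (minus) share a chromosome. All 10 are annotated as protein-coding, and the counts cover their exons.

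The libraries held 21748781 to 22779536 reads for WT, 18308876 for KO 2 and 12539599 for KO 3, so depth was lower with the KO genotype. Syncrip, the targeted gene, had 1944, 1440 and 1794 normalized reads in WT 1, WT 2 and WT 3, compared with 294 for KO 2 and 343 for KO 3 (log2 fold change -2.43, SE 0.22, adjusted p = 0.0352 by limma). The 12 listed HSC markers, Cd48 among them, had reads in every library. Their sum was 0.0760% to 0.129% of WT reads, 0.0851% of those of KO 2 and 0.132% of those of KO 3. Procr, Mecom, Hlf, Fgd5 and Hoxb5 each fell from WT 1 to WT 3 and were highest in KO 3. Hoxb5, for example, had 119, 26.0 and 14.6 in WT, 43.2 in KO 2 and 134 in KO 3. Kit, Ly6a, Mllt3 and Cd34 lay within the WT range in KO 3. Cd48, whose protein the gate excludes, had 601 to 768 normalized reads in WT, 459 in KO 2 and 191 in KO 3. The sum of 6 lineage markers was 0.0477% to 0.0691% of WT reads, 0.0319% of those of KO 2 and 0.0135% of those of KO 3. The sum of 12 neutrophil and myeloid markers, which include granule genes of maturing neutrophils such as Ltf, Camp and Ngp, was 6.23% to 7.52% of WT reads, 5.53% of those of KO 2 and 2.66% of those of KO 3. The sum of 12 adipocyte markers was 0.156% of reads in KO 2 and at most 0.00406% in every other library, with Ucp1, Cidea and Cidec at 0 outside KO 2. The sum of 8 B cell markers was 0.00304% to 0.00402% of WT reads, 0.00333% of those of KO 2 and 0.00357% of those of KO 3. The sum of 6 T cell markers was 0.000702% to 0.000872% of WT reads, 0.000819% of those of KO 2 and 0.00187% of those of KO 3. Of the T cell markers, Cd3e was at 0 in KO 2, but Cd4 was highest in KO 2 (57.6) and Lck in KO 3 (325). The part of these transcripts in the BCL2 family values was not tested.

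The order of the 10 genes in WT HSCs is given on the scale of normalized reads per kilobase of annotated exon. All annotated exons of a gene were merged for this length. For Bax it was 1576 bases, with 1100 in the longest transcript, while for Mcl1 both lengths were 3418 bases. Comparisons between genes on this scale, including the order of Mcl1 and Bax, therefore depend on the length used. Mcl1, whose short-lived protein holds BAK1 and several BH3-only proteins, was the highest at 1478 ± 34.2 (SD, n = 3). Bax followed at 1049 ± 44.3, and Bid, whose protein is cut by caspase 8 to carry death receptor signals to mitochondria, at 666 ± 52.6. Bad, the BH3-only gene whose protein is held by 14-3-3 proteins when growth factors are present, was at 306 ± 16.8, Bcl2l1 (BCL-XL) at 212 ± 27.8 and Bcl2 at 124 ± 31.0. The ranges of these 6 genes over the WT libraries did not overlap with those of their neighbours in the order. Bcl2l11 (BIM) at 54.5 ± 9.83 and Bak1 at 46.8 ± 21.0 overlapped with each other, as did Bmf at 9.52 ± 1.67 and Bcl2l2 (BCL-W) at 7.78 ± 1.70, the lowest of the family. The WT mean of Mcl1 was thus 6.96 times that of Bcl2l1, 11.9 times that of Bcl2 and 190 times that of Bcl2l2 per kilobase. In KO 2, Bax (1846) stood above Mcl1 (1220), while KO 3 kept Mcl1 (2124) above Bax (1816). In KO 3, Bad (543) stood above Bid (513). Bcl2l1 came directly above Bcl2 in all 5 libraries.

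**Figure D1:**
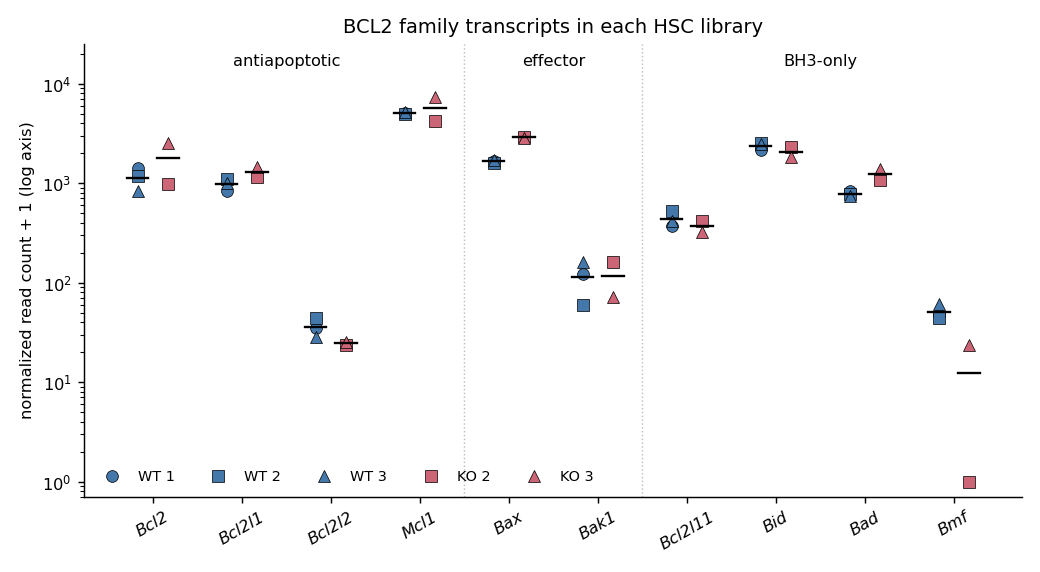
Normalized read count plus 1 of each of the 10 genes (vertical log axis) in the 3 WT libraries (blue) and 2 KO libraries (red), grouped by role, with a bar at each group mean. Bax stands at 2909 and 2863 in KO against 1573 to 1704 in WT, and Bmf is at 0 in KO 2.

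Among the antiapoptotic genes, Bcl2l1 was higher in both KO libraries than in any WT library, and Bcl2l2 was lower in both. Bcl2 and Mcl1 were high in KO 3 alone. None of the 4 passed the test. Values below are normalized read counts, that is reads divided by the size factor of the library, and serve comparison of a gene between libraries only.

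Bcl2, the founding survival gene, had 1402 in WT 1, 1164 in WT 2 and 837 in WT 3, compared with 973 for KO 2 and 2556 for KO 3. KO 2 lay within the WT range and KO 3 stood at 2.63 times KO 2, so the groups overlapped. The log2 fold change was 0.51 (SE 0.39, adjusted p = 0.419 by limma), made of -0.19 in KO 2 and 1.20 in KO 3 relative to the WT mean. Mcl1 was nearly level in WT, at 5092, 4918 and 5141 in WT 1, WT 2 and WT 3. It had 4168 in KO 2, below every WT library, and 7259 in KO 3, above every one. With KO libraries on either side of WT, the log2 fold change was 0.12 (SE 0.24, adjusted p = 0.753 by limma), with a 95% confidence interval from -0.42 to 0.66.

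Bcl2l1, whose protein BCL-XL guards mitochondria of many blood cells, had 837, 1091 and 991 in WT 1, WT 2 and WT 3, compared with 1158 for KO 2 and 1444 for KO 3. Its groups did not overlap, although KO 2 exceeded WT 2 by little. The log2 fold change was 0.42 (SE 0.21) at a limma adjusted p of 0.232, with a 95% confidence interval from -0.07 to 0.90. Bcl2l2 had 34.1, 42.5 and 27.4 in WT, compared with 22.6 for KO 2 and 24.3 for KO 3, from 16 to 49 reads per library. The exact Poisson 95% intervals of KO 2 (14.2 to 34.2) and WT 3 (18.8 to 38.7) overlapped. Such intervals cover counting error only, since these reads carry no molecular identifiers and may be PCR copies of a molecule. The log2 fold change of Bcl2l2 was -0.52 (SE 0.59, adjusted p = 0.585 by limma).

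Of the effectors, Bax showed the tightest separation of all 10 genes, while Bak1 did not separate. Bax had 1682 in WT 1, 1573 in WT 2 and 1704 in WT 3, compared with 2909 for KO 2 and 2863 for KO 3. Both KO libraries stood well above the 3 WT libraries, and neither group spread by more than 1.08 times from lowest to highest. The group means were 1653 ± 69.8 in WT (SD, n = 3) against 2886 ± 32.8 in KO (SD, n = 2), a ratio of 1.75. The log2 fold change was 0.80 (SE 0.17, 95% confidence interval 0.42 to 1.18), with an unadjusted limma p of 0.00111 and an adjusted p of 0.0815, which misses the threshold of 0.05. With DESeq2 on the recovered reads the adjusted p was 0.000383, and with edgeR it was 0.0926. After removal of a per-library trend on transcript length and GC content, the Bax difference turned to -0.15 (SE 0.20, adjusted p = 0.733 by limma).

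Bak1 had 120, 59.0 and 159 in WT 1, WT 2 and WT 3, compared with 159 for KO 2 and 71.4 for KO 3. The KO libraries differed by 2.23 times and the WT libraries by up to 2.70 times, and the groups overlapped. The log2 fold change was 0.03 (SE 0.55) at a limma adjusted p of 0.972, with a 95% confidence interval from -1.22 to 1.29 that leaves room for a difference of over 2-fold either way. Bak1 shares exon bases (7.35% and 18.2%) with 2 annotations of Ggnbp1 on the opposite strand. The library kit does not mark strand, and reads of such a pair cannot be told apart. Ggnbp1 had 12.5 to 19.1 in WT, then 41.1 in KO 2 and 38.0 for KO 3.

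Of the BH3-only genes, Bad was higher and Bmf lower in both KO libraries than in any WT library, and Bcl2l11 and Bid overlapped between the groups. Bad had 828 in WT 1, 772 in WT 2 and 744 in WT 3, compared with 1078 for KO 2 and 1390 for KO 3. The group means were 782 ± 43.0 in WT (SD, n = 3) against 1234 ± 220.1 in KO (SD, n = 2), a ratio of 1.58. The log2 fold change was 0.65 (SE 0.21, 95% confidence interval 0.18 to 1.12), with an unadjusted limma p of 0.0130 and an adjusted p of 0.104. DESeq2 gave an adjusted p of 0.0288 and edgeR 0.109. Bad shares 20.5% of its exon bases with Gpr137 on the opposite strand, which had 514 to 609 in WT, then 822 in KO 2 and 796 for KO 3 (log2 fold change 0.52, SE 0.21, adjusted p = 0.155 by limma).

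Bmf, whose protein is held at the cytoskeleton through dynein light chain until the cell detaches or is stressed, was a low transcript throughout. It had 46.6, 43.4 and 60.0 in WT 1, WT 2 and WT 3 (50 to 70 reads), compared with 0 for KO 2 and 22.8 for KO 3 (15 reads). The 0 in KO 2 allows up to 3 reads (a one-sided 95% limit), or 3.08 on the normalized scale. The exact Poisson 95% interval was 12.8 to 37.6 in KO 3 and 32.2 to 57.2 in WT 2, and the intervals overlapped. The fitted log2 fold change was -3.37 (SE 1.23, adjusted p = 0.127 by limma). That size depends on the pseudocount, because it rests on a library at 0, and was -2.21 in edgeR and -2.17 in DESeq2, where the adjusted p was 0.287 and 0.200. Without KO 2 it was -1.09.

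Bid had 2151, 2500 and 2441 in WT 1, WT 2 and WT 3, compared with 2286 for KO 2 and 1821 for KO 3. Only KO 3 was below WT, and the log2 fold change was -0.21 (SE 0.19, adjusted p = 0.482 by limma). The 95% confidence interval of Bid, -0.63 to 0.21, was among the narrowest of the 10. Bid shares 17.7% of its exon bases with Bcl2l13 on the opposite strand, which overlapped between the groups at 2183 to 3068 in WT, then 2939 in KO 2 and 2292 for KO 3. Bcl2l11, whose protein BIM binds every antiapoptotic member and is needed for removal of cells deprived of cytokine, had 370, 524 and 419 in WT, compared with 417 for KO 2 and 322 for KO 3. The fitted difference was -0.24 on the log2 scale (SE 0.27, adjusted p = 0.585 by limma), and again only KO 3 was below WT.

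Across the family, limma called none of the 10 genes at an adjusted p under 0.05, beside 0.00732% of all genes tested, which is 1 gene, Syncrip. At an unadjusted limma p under 0.05 there were 3 of 10 (Bax, Bad and Bmf), beside 27.8% of all genes. edgeR's quasi-likelihood test called none of the 10, beside 0.0146% of all genes, and DESeq2 called 2 of 10 (Bax and Bad, both higher in KO), beside 18.7% of the genes to which it gave an adjusted p. KO and WT values did not overlap for 5 of 10, beside 47.1% of all genes. Both KO values were above all WT values for 3 of 10, Bcl2l1, Bax and Bad, beside 23.9%, and below for 2 of 10, Bcl2l2 and Bmf, beside 23.2%. By each of these counts the share of members was near that of all genes. The median log2 fold change of the 10 was 0.08, beside 0.02 for all genes. It was 0.27 for the 4 antiapoptotic genes, 0.42 for the 2 effectors and -0.22 for the 4 BH3-only genes. The effector median was -0.31 without the length and GC trend and the antiapoptotic median was -0.23 without KO 3, so these 2 turned in sign.

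The KO libraries differed from each other for several members. KO 3 lay outside the WT range for 9 of 10 genes, all but Bak1, beside 78.3% of all genes, and KO 2 for 6 of 10, beside 63.7%. Bax, Bad and Bcl2l1 above WT and Bmf and Bcl2l2 below WT were common to both. Mcl1 was below WT in KO 2 and above WT in KO 3. With KO 2, the library that held adipocyte transcripts, left out, limma called Bcl2 (1.20, adjusted p = 0.0329), Bax (0.79, adjusted p = 0.0262) and Bad (0.83, adjusted p = 0.0343) among 3024 genes called. These 3 of 10 stood beside 22.1% of all genes. That fit takes KO 3, the shallowest library, to vary like the WT libraries. With KO 3 left out, limma called none of the 10 genes and 4 genes in all.

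**Figure D2:**
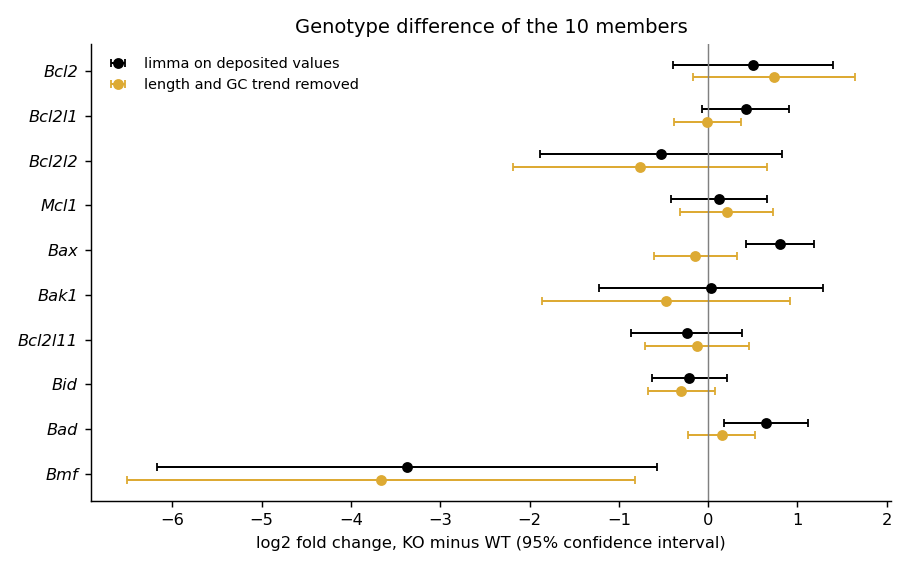
Log2 fold change (KO minus WT, horizontal axis) of the 10 genes with its 95% confidence interval, from limma on the deposited values (black) and after removal of that trend per library (length and GC content of the transcript) (yellow). Bax moves from 0.80 to -0.15, and Bmf has by far the widest intervals.

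The genotype difference followed the GC content of transcripts across the whole table. Tested genes with a transcript matched by symbol were split into 10 equal classes by the GC content of their longest GENCODE M21 transcript. The median log2 fold change went from -0.76 in the class of lowest GC to 0.73 in the class of highest GC. Both KO values were above all WT values for 2.53% of genes in the lowest class and for 60.4% in the highest. The slope was present in each KO library, from -0.54 to 0.47 in KO 2 and from -0.99 to 1.01 in KO 3.

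The 3 members above WT in both KO libraries all had GC-rich transcripts. Bax, at 63.5% GC, fell in the highest class (median 0.73, beside 0.80 for Bax), and Bad at 57.1% and Bcl2l1 at 55.9% fell in the ninth (median 0.46, beside 0.65 and 0.42). Bak1, at 57.1%, was in the same class with 0.03. Bcl2 was at 46.3% GC in the fourth class (median -0.21, beside 0.51), Mcl1 at 48.7% in the fifth (-0.05, beside 0.12), Bcl2l2 at 53.1% in the seventh (0.20, beside -0.52), and Bmf at 53.7% in the eighth (0.31, beside -3.37). Once that trend was removed, Bad stood at 0.15 (SE 0.16), Bcl2l1 at -0.0075 (SE 0.16), Bak1 at -0.47 (SE 0.60), Bcl2 at 0.74 (SE 0.39), Mcl1 at 0.21 (SE 0.23) and Bmf at -3.66 (SE 1.24). Of the 10, Bcl2l2 and Bmf, both lower in KO, then had groups that did not overlap, beside 35.7% of the 13015 genes in either direction and 18.5% with both KO values below WT. No gene of the table, Syncrip included, was called in that fit, and 2253 genes had an unadjusted limma p under 0.05.

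**Figure D3:**
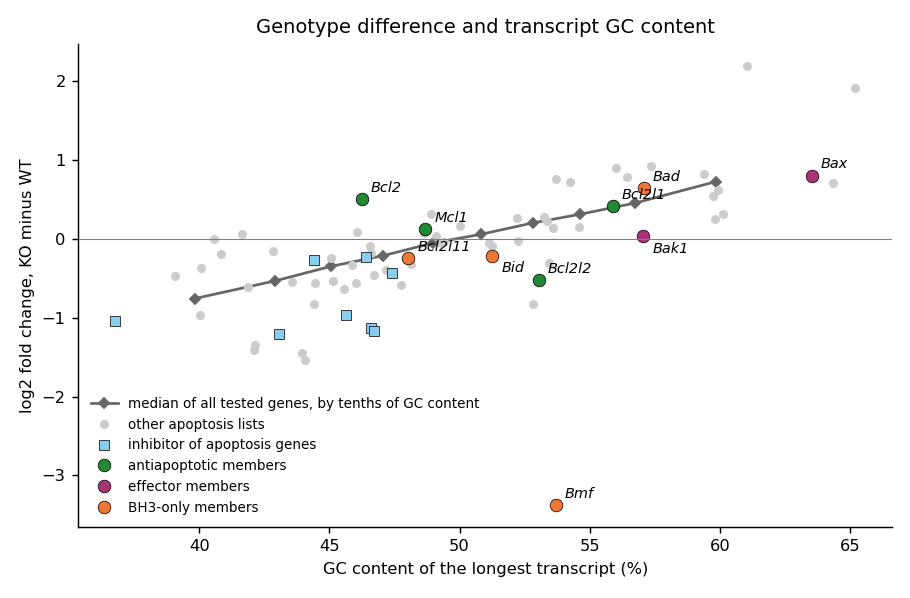
Log2 fold change (KO minus WT, vertical axis) against the GC content of the longest transcript in percent, for the 10 members by role, for the inhibitor of apoptosis genes (squares) and for genes of other apoptosis lists (grey). The line joins the medians of 10 GC classes of all tested genes and runs from -0.76 to 0.73. Bax, Bad and Bcl2l1 lie close to it, and Bcl2, Bcl2l2, Bak1 and Bmf away from it.

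The balance between effector and survival transcripts was described in each library, with no test. The ratio of Bax to Bcl2 in normalized reads was 1.20, 1.35 and 2.03 for WT 1, WT 2 and WT 3, compared with 2.99 for KO 2 and 1.12 for KO 3. KO 2 was the highest and KO 3 the lowest of the 5 libraries. The ratio of Bax to Mcl1 was nearly the same in WT libraries, at 0.330, 0.320 and 0.331, and was higher in both KO libraries, at 0.698 in KO 2 and 0.394 in KO 3. The KO minus WT difference of the log2 ratio was 0.30 for Bax to Bcl2 and 0.68 for Bax to Mcl1. Without KO 2 these were -0.41 and 0.27, and without KO 3 they were 1.00 and 1.09. Once the length and GC trend was taken out they became -0.88 and -0.35, so both turned in sign.

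Summed per kilobase, the 4 antiapoptotic genes stood at 1833, 1813 and 1818 in WT 1, WT 2 and WT 3, at 1584 in KO 2 and at 2723 in KO 3. KO 2 was below and KO 3 above all WT libraries. Mcl1 made up 79.3% to 82.7% of that sum in WT, 77.0% in KO 2 and 78.0% in KO 3. Bax made up 94.2% to 98.4% of the summed effector level in the 5 libraries, with Bak1 the rest. The 4 BH3-only genes together stood at 985 to 1080 per kilobase in WT, then 1118 in KO 2 and 1101 for KO 3. Bid gave 61.5% to 66.0% of that BH3-only sum in WT, 57.6% in KO 2 and 46.6% in KO 3.

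**Figure D4:**
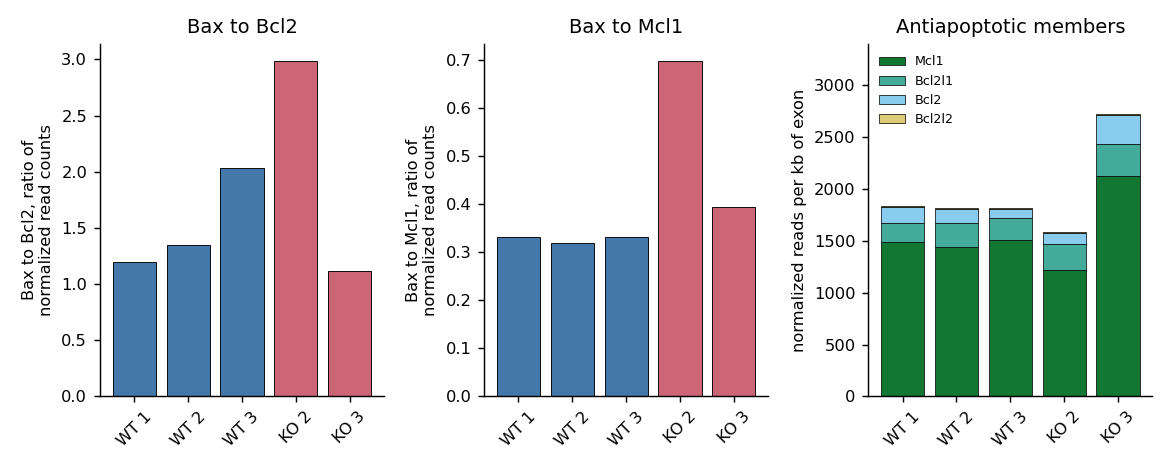
Ratio of Bax to Bcl2 (left) and of Bax to Mcl1 (middle) in normalized reads, and the summed normalized reads per kilobase of exon of the 4 antiapoptotic genes (right), in each of the 3 WT and 2 KO libraries. The Bax to Bcl2 bars of the groups overlap (1.20 to 2.03 in WT, 1.12 and 2.99 in KO), whereas both Bax to Mcl1 bars of KO exceed those of WT.

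The stretches upstream of the 3 members above WT in both KO libraries are shown to let their promoters be compared. They are the 250 bases before a RefSeq start site in GRCm38.p6, at a start where the window holds no annotated exon, written 5′ to 3′ on the strand of the gene. Capitals mark the GC box GGGCGG or its reverse complement CCGCCC, a site of SP1 family factors.
Bax (chr7:45466899-45467148, minus strand): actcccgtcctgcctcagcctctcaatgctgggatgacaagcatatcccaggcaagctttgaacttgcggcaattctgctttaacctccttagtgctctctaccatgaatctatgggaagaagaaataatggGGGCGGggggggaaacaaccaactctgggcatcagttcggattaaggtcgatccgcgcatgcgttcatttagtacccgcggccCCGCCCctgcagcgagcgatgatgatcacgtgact
Bad (chr19:6941611-6941860, plus strand): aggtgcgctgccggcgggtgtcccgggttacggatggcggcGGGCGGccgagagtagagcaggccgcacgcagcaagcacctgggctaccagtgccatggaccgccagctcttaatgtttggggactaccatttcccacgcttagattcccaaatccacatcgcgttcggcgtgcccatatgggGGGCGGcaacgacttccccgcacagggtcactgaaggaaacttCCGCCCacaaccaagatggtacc
Bcl2l1 (chr2:152831729-152831978, minus strand): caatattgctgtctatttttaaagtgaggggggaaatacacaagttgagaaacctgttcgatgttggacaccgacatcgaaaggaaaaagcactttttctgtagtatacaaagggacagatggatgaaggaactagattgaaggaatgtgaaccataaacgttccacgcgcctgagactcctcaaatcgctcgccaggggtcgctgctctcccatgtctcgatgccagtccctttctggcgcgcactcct

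Bax held 2 GC boxes and Bad 3, while the Bcl2l1 window held none. GC boxes were found in 32.7% of 32851 RefSeq promoter windows of the same length. They were not particular to these 3 members. Bcl2 held 7, Bid 3, Bcl2l11 3 and 2 in different windows, and Mcl1 and Bcl2l2 1 each, while Bak1 and Bmf held none. The windows of Bid and Bcl2l2 include annotated exon. The Bax window also held an E-box (CACGTG, in 6.02% of windows) and a p53 half-site (in 7.13%), searched on both strands. Neither Bad nor Bcl2l1 held these in the windows printed, but a window of Bmf, which was lower in KO, also held a p53 half-site. None of the 3 held a TATA box (TATAAA, in 12.4%) or the FOXO core (GTAAACA, in 3.17%). The windows were 54.0%, 62.8% and 47.6% GC for Bax, Bad and Bcl2l1, beside a median of 52.4% over all windows. A match is a description of letters and no evidence of binding.

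The wider apoptosis machinery was examined with 72 listed genes, all in the table, of which 66 were tested. limma and edgeR called none of them, 25 of 66 (37.9%) had an unadjusted limma p under 0.05 beside 27.8% of all genes, and DESeq2 called 15 of the 62 to which it gave an adjusted p (24.2%), 6 higher and 9 lower in KO, beside 18.7% of all genes with one. KO and WT did not overlap for 32 of 66 (48.5%), beside 47.1% of all genes. Of 15 further BCL2 family genes, 11 were tested, and DESeq2 called 4 of the 8 with its adjusted p, 3 higher and 1 lower.

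Bbc3, which encodes the BH3-only protein PUMA, a p53 target, had 255, 225 and 150 in WT 1, WT 2 and WT 3, compared with 490 for KO 2 and 1223 for KO 3. Both KO libraries were well above WT, with a log2 fold change of 1.91 (SE 0.42, adjusted p = 0.0815 by limma, DESeq2 adjusted p = 0.000329). Its transcript was 65.2% GC, and the value was 0.83 once the length and GC trend was taken out. Bok, an effector-like relative of Bax and Bak1, had 96.6, 30.4 and 29.1 in WT, compared with 107 for KO 2 and 396 for KO 3 (log2 fold change 2.20, SE 0.72, adjusted p = 0.107 by limma), where KO 2 was only just above WT 1. Bcl2l12 had 659 to 782 in WT, then 1106 in KO 2 and 1356 for KO 3 (0.78, SE 0.21, adjusted p = 0.0851 by limma). Once the trend was taken out, Bok stood at 1.42 and Bcl2l12 at 0.33.

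Pmaip1, which encodes NOXA, the BH3-only protein that binds MCL1, went the other way from Bbc3. It had 64.9, 128 and 176 in WT, compared with 55.5 for KO 2 and 34.9 for KO 3 (log2 fold change -1.35, SE 0.54, adjusted p = 0.151 by limma). Bnip3l, a mitophagy receptor with a BH3-like region, had 1737 to 2151 in WT, then 1400 in KO 2 and 1183 for KO 3 (-0.61, SE 0.19, adjusted p = 0.101 by limma). The transcripts were 42.1% and 41.9% GC, and with the trend removed Pmaip1 stood at -0.78 and Bnip3l at -0.03. The near-identical genes Bcl2a1a, Bcl2a1b and Bcl2a1d may share reads and are uncertain. Bcl2l10 was at 0 in every library and Hrk in all but KO 3.

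Among the 17 mitochondrial execution genes, all tested, DESeq2 called 1 higher and 3 lower (23.5%, beside 18.7% of all genes with its adjusted p). Casp2, an initiator caspase, had 2270 to 2657 in WT, then 1826 in KO 2 and 1459 for KO 3 (-0.58, SE 0.19, adjusted p = 0.104 by limma). Apaf1, the scaffold of the apoptosome, had 1667 to 2360 in WT, then 1571 in KO 2 and 1174 for KO 3 (-0.56, SE 0.22, adjusted p = 0.149 by limma). Opa1, which fuses and shapes the inner mitochondrial membrane, had 1933 to 2034 in WT, then 1389 in KO 2 and 1318 for KO 3 (-0.54, SE 0.17, adjusted p = 0.102 by limma, DESeq2 adjusted p = 0.0230). Endog, a mitochondrial nuclease, went the other way, at 1313 and 1748 in the KO libraries against 857 to 1020 in WT (0.71, SE 0.21, adjusted p = 0.0929 by limma), on a transcript of 64.3% GC. Once the length and GC trend was taken out Endog turned to -0.29, with Casp2 at -0.43, Apaf1 at -0.31 and Opa1 at -0.11.

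Of the inhibitor of apoptosis genes, 8 of 8 tested had a log2 fold change below 0, beside 6682 of all 13661 genes, with a median log2 fold change of -1.003. KO and WT did not overlap for 6 of 8, all lower, beside 23.2% of all genes. These 8 transcripts lay in the 4 classes of lowest GC. There, both KO values were below all WT values for 61.9%, 50.7%, 40.1% and 31.3% of genes, from the lowest class up. Birc2 and Birc3, which encode the ubiquitin ligases cIAP1 and cIAP2, had 770 to 858 and 502 to 602 in WT. In KO 2 and KO 3 they had 396 and 317 for Birc2 (log2 fold change -1.21, SE 0.22, adjusted p = 0.0815 by limma, DESeq2 adjusted p = 0.000111), and 249 and 243 for Birc3 (-1.13, SE 0.24, adjusted p = 0.0815 by limma, DESeq2 adjusted p = 0.000899). Naip2, which senses bacterial proteins for the inflammasome, had 416 to 579 in WT, then 362 in KO 2 and 140 for KO 3 (-1.17, SE 0.40, adjusted p = 0.117 by limma), and its relative Naip5 had 273 to 458 in WT, then 195 in KO 2 and 169 for KO 3 (-0.96, SE 0.31, adjusted p = 0.108 by limma, DESeq2 adjusted p = 0.0345). Naip genes share similar sequence, so both values are uncertain. Xiap, a direct inhibitor of caspases, had 214 to 399.6 in WT, then 169.6 in KO 2 and 102 for KO 3 (-1.05, SE 0.39, adjusted p = 0.136 by limma). The 8 transcripts were 36.8% to 47.4% GC, and with the trend removed the median was -0.46. Birc2 then stood at -0.72, Birc3 at -0.88, Naip2 at -0.96, Naip5 at -0.67 and Xiap at -0.13. Not all 8 genes stayed below 0 in that fit, with the highest at 0.10.

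Of 10 tested death receptor genes, the adaptor Tradd stood at 1266 for KO 2 and 2255 for KO 3 against 767 to 1032 in WT (log2 fold change 0.92, SE 0.27, adjusted p = 0.0941 by limma, DESeq2 adjusted p = 0.0156). Ripk3, the kinase of necroptosis, had 909 to 1548 in WT, then 1640 in KO 2 and 2445 for KO 3 (0.73, SE 0.27, adjusted p = 0.136 by limma), and Tnfrsf1a, a TNF receptor, had 0.45 (SE 0.19). Cflar, the inhibitor of caspase 8, and the kinase Ripk1 were lower in both KO libraries, at -0.56 (SE 0.24) and -0.53 (SE 0.20). Among 20 tested regulators of BCL2 family proteins, Usp9x, a deubiquitinase that stabilizes MCL1, had 1369 to 1635 in WT, then 834 in KO 2 and 727 for KO 3 (-0.96, SE 0.19, adjusted p = 0.0815 by limma). Ywhaz, a 14-3-3 protein that holds BAD, was at -0.63 (SE 0.18), while Dynll2, the dynein light chain that holds BMF, was at 0.77 (SE 0.26), Bag6 at 0.62 (SE 0.23) and Akt1, a kinase that phosphorylates BAD, at 0.54 (SE 0.20). None of these was called by limma. Without the length and GC trend Bag6 (-0.11) and Akt1 (-0.16) turned in sign, and the others were closer to 0, with Tradd at 0.40, Ripk3 at 0.43, Tnfrsf1a at 0.03, Cflar at -0.19, Ripk1 at -0.21, Usp9x at -0.30, Ywhaz at -0.32 and Dynll2 at 0.50.

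**Figure D5:**
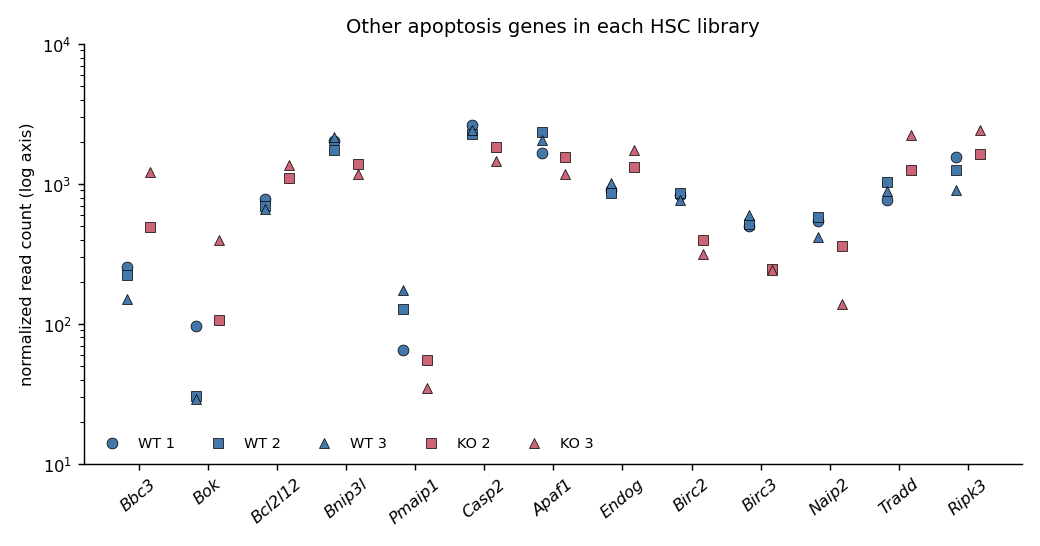
Normalized read count (vertical log axis) of 13 other apoptosis genes in each of the 3 WT (blue) and 2 KO (red) libraries. Bbc3 has both KO libraries above WT (490 and 1223 against 150 to 255), and Birc2 and Birc3 have both below.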

How the data were processed

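Sorted HSC RNA was made into libraries with a low-input SMART-Seq v4 kit. Per the submitters' processing notes, STAR, featureCounts and DESeq2 were used with mm10 (versions, and use of strand, are not given in the sources used here). The authors deposited normalized signal, read counts divided by a size factor for each library. Dividing by the step of each column gave whole reads for 100% of values (tolerance 0.01). The deposited table of the authors' own comparison (fold changes, p-values, adjusted p-values) was not used.

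WT and KO were compared with limma 3.58.1 (mean-variance trend, R 4.3.3) on log2(value + 1), for genes with at least 10 in at least 2 libraries. P-values were adjusted by Benjamini-Hochberg over 13661 genes, and genes were called at 0.05. Unless edgeR or DESeq2 is named, fold changes refer to log2(value + 1), where those of low genes depend on the pseudocount. The procedure was tested on simulated data, which held no trend on length or GC content, unlike the libraries here. edgeR 4.0.16 and DESeq2 1.42.0 on recovered reads were alternatives, as were the pseudocount, filter, scaling, array weights, replicate block, each library left out, and removal of a linear trend on log2 transcript length and GC content (13015 genes matched by symbol). The 10 genes and the lists were chosen with earlier results of these data known. From each other list, the text names the up to 3 highest and up to 3 lowest fold changes among genes with non-overlapping groups and an unadjusted p under 0.05, and other BCL2 family genes by level; 1 gene that the rule names is not reported here. Every pair of libraries differed by more than sampling noise (lowest chi-square 32.6 per degree of freedom).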

Additional observations from a re-analysis of the deposited data

How the results depend on the processing

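Syncrip kept its direction under all 16 alternatives, but missed the threshold with no filter (-2.43, limma adjusted p = 0.0503), array weights (-2.42, 0.0594), the length and GC trend removed (-1.53, 0.138) and that with the replicate block (-1.49, 0.172), and also without WT 1 (0.210), WT 2 (0.164) or WT 3 (0.192). It ranged from -2.55 to -2.32 with each library left out. The count of genes called was 1, and 2 with a pseudocount of 10, 0 with no filter, 0 with array weights, 2 in edgeR, 2279 in DESeq2, 6 with the replicate block, 0 with the length and GC trend removed, 4 with both, and 0 to 3024 with a library left out. Members called were 2 in DESeq2 and 0 to 3 with a library left out, and members without overlap 2 with the trend removed and 5 to 9 with a library left out (the block and array weights do not move values). The members' median was 0.016 under quantile normalization, 0.13 with the block, -0.13 with the trend removed, -0.15 with both, and -0.049 to 0.22 with a library left out. The Bax to Bcl2 log2 difference was -0.88 with the trend removed, -0.99 with the block added, and -0.41 to 1.00 with a library left out, where KO 2 and KO 3 gave the ends. Other apoptosis genes called were 15 in DESeq2 and 0 to 19 with a library left out, the 19 without KO 2.

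With the trend removed, without and with the block, the sign turned for Bcl2l1 (-0.0075 and -0.077), Bax (-0.15 and -0.075) and Bak1 (-0.47 and -0.33), and Bak1 also with array weights (-0.060). With a library left out, Bcl2 ranged from -0.19 to 1.20, Mcl1 from -0.28 to 0.52 and Bak1 from -0.54 to 0.61. The other 5 members, Bcl2l2, Bcl2l11, Bid, Bad and Bmf, kept their sign under all 16. The cause of the GC trend was not tested. Replicate numbers 2 and 3 occur in both groups, but with 2 pairs they do not show a paired design (deviations of same-numbered libraries correlated at -0.059 and -0.18), and the block drops WT 1. It called no member. A fit without a KO library takes the remaining one to vary like WT. Depth limits Bcl2l2 and Bmf, with 70 reads or fewer in every library.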
